A study of Mus musculus with 12 samples.

Results

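A group of 7 genes that mark atrial heart muscle in the mouse, namely Myl7, Myl4, Sln, Bmp10, Dkk3, Stard10 and Mybphl, was followed across RNA-seq libraries of the left ventricle. They were chosen by their gene symbols in GENCODE M21 and not by a cut on their values, but with earlier results of these data known. All 7 were found among the 26921 genes of the count table. The libraries came from 16-week-old mice, 6 WT and 6 cmGch1 KO. In both groups the Gch1 alleles were floxed, and only the cmGch1 KO group also carried Cre recombinase, driven by α-MHC, a promoter of cardiomyocytes in the atria as well as the ventricles. Mice with Cre but without the floxed alleles were not analysed here, so that deletion of Gch1 and the presence of Cre cannot be told apart. The sample labels name the tissue as heart, and the study's methods name it as left ventricle. Gch1 encodes the enzyme that begins the synthesis of tetrahydrobiopterin, a cofactor of the nitric oxide synthases.

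Atrial and ventricular cardiomyocytes share most of their contractile machinery, but in the adult heart each chamber uses its own isoforms of several proteins. The atrial isoforms are silent or low in the ventricle of a healthy adult. The atria adjoin the ventricles at the base of the heart. The level of atrial transcripts in ventricular RNA can therefore be read as a gauge of where the tissue was cut. Low expression in ventricular cells would add to that level. In bulk tissue, more cells of a type and more RNA per cell cannot be told apart.

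Among the 7 genes, Myl7 and Myl4 encode the regulatory and the essential myosin light chain of the atrium, the counterparts of Myl2 and Myl3 in the ventricle. Sln encodes sarcolipin, a small membrane peptide that inhibits the sarcoplasmic reticulum calcium pump, as phospholamban (Pln) does in the ventricle. Mybphl encodes a sarcomere protein related to cardiac myosin-binding protein C. Bmp10 encodes a secreted growth factor of the TGF-β family, which in the adult heart is made mainly in the right atrium. Dkk3 encodes a secreted glycoprotein of the Dickkopf family, and Stard10 a protein that carries phospholipids between membranes.

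On GRCm38, Myl7 (ENSMUSG00000020469) lies at chr11:5896637-5898782 on the minus strand and Myl4 (ENSMUSG00000061086) at chr11:104550663-104595753 on the plus strand. Sln (ENSMUSG00000042045) lies at chr9:53850164-53854560 on the plus strand. Mybphl (ENSMUSG00000068745) occupies chr3:108364911-108380057 on the plus strand, and Bmp10 (ENSMUSG00000030046) occupies chr6:87428994-87437677 on the plus strand. Dkk3 (ENSMUSG00000030772) and Stard10 (ENSMUSG00000030688) are both on chromosome 7, at chr7:112116017-112159057 on the minus strand and chr7:101317086-101346626 on the plus strand. Myl4, Stard10 and Mybphl overlap annotated transcripts on the opposite strand, among them Gm11665, Gm20476 and Gm12522. The libraries were made to keep strand, but the strand setting of the counting was not given in the sources used here, so reads of these partners cannot be told apart from those of the 3 genes.

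The 250 bases upstream of the RefSeq start (GRCm38.p6) are shown for the 3 members with 1 annotated transcript and a matched promoter. They are shown since these members ranged from among the most variable of the tested genes to Bmp10, which was nearly undetected. The same window is shown for Nppa, the atrial natriuretic peptide gene, whose pattern is compared with theirs below. Promoters were matched for 5 of the 7 members, and Dkk3 and Sln were not matched. Capitals mark the letters searched for on both strands, and the positions are counted upstream from the start of the gene. The Myl7 promoter (chr11:5898783-5899032, minus strand) holds a CArG box, the motif of serum response factor, 61 to 52 bases upstream. The Mybphl promoter (chr3:108364661-108364910, plus strand) holds AGATAA, the motif known for GATA factors, 141 to 136 bases upstream. The Bmp10 promoter (chr6:87428744-87428993, plus strand) holds AGATAA at 219 to 214 and again at 33 to 28 bases upstream. The Nppa promoter (chr4:148000472-148000721, plus strand) holds the T-box motif AGGTGT on the opposite strand, 248 to 243 bases upstream, and the NKX2-5 motif TNAAGTG 241 to 235 bases upstream.
Myl7: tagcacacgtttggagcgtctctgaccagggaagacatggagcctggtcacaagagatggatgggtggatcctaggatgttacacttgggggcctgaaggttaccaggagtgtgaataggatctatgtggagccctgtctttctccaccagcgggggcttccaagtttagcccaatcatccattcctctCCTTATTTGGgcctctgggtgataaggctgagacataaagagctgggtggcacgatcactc
Mybphl: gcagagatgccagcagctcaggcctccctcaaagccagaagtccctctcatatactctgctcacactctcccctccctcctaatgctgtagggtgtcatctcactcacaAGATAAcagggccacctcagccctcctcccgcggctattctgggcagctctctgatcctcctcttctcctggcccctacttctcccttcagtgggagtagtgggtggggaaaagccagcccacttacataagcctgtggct
Bmp10: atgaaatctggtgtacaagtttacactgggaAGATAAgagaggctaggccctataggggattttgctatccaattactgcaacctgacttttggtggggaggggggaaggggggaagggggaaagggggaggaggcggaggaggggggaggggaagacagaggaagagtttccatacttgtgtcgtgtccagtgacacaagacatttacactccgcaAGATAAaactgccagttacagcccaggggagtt
Nppa: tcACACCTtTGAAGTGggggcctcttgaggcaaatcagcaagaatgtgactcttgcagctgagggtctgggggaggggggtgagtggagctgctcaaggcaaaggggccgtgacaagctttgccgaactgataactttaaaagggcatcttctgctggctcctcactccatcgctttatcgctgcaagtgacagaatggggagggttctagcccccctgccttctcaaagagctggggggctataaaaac

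Of 32851 promoters of the same length, 1.47% held a CArG box, 9.99% held AGATAA, 11.8% held AGGTGT and 10.1% held TNAAGTG. The windows of Myl4 and Stard10, genes with 8 and 11 annotated transcripts, held none of these letters and no MEF2 motif, which was found in 0.508% of all promoters. A match is a description of the letters only.

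Sarcolipin is among the shortest proteins of the heart, and its whole coding sequence fits on 1 line. It was taken from the GENCODE M21 transcript and has 96 bases, with 31 codons before the stop codon. The start and stop codons are in capitals, and the transcript around it has 1318 bases.
Sln: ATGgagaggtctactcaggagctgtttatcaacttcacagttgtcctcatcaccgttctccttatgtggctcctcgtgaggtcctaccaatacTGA

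The libraries held 19921398 to 37917806 counts. Values are given in cpm, the counts divided by library size after scaling by edgeR's TMM factors. Where a gene had no count, a floor of 3 counts set its upper limit at 0.0827 to 0.139 cpm, depending on the library, for counting error only. The deleted gene, Gch1, averaged 10.7 ± 0.974 cpm in the 6 WT libraries and 5.48 ± 0.855 cpm (mean ± SD) in the 6 cmGch1 KO libraries, with no overlap and a log2 fold change of -0.96 (SE 0.11, edgeR FDR = 6.88e-04). The labels give no sex. cmGch1 KO replicates 2 and 3 had Xist at 86.7 and 99.1 cpm and no count of 4 Y-linked genes, whereas the other 10 libraries had the 4 Y-linked genes at a sum of 166.9 to 192.3 cpm. The same 2 libraries had 14.9% and 16.1% of their counts on mitochondrial genes, against 18.3% to 22.9% in the others. For each of the 7 atrial genes their values lay within the range of the other cmGch1 KO libraries.

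The ventricular identity of the tissue was plain in every library. Per kilobase of exon, Myl2 had a median of 3134 cpm per kb over the 12 libraries and Myl3 had 2462 cpm per kb. The atrial light chain Myl7 had a median of 65.5 cpm per kb, with 5.49 to 204 cpm per kb from the lowest library to the highest. The remaining members followed in the order Stard10 (17.1 cpm per kb), Sln (9.87), Myl4 (9.42), Dkk3 (5.94) and Mybphl (2.86), with Bmp10 at a median of 0. Neighbours in this order had overlapping ranges over the libraries, except Mybphl and Bmp10. As a share of its ventricular counterpart per kilobase, Myl7 was 0.180% to 4.66% of Myl2 in WT libraries and 1.22% to 5.35% in cmGch1 KO libraries. Myl4 was 0.0327% to 0.786% of Myl3 in WT and 0.241% to 0.819% in cmGch1 KO libraries. Sln was 0.0228% to 1.56% of Pln in WT and 0.157% to 0.886% in cmGch1 KO libraries. For none of these 3 shares did the genotypes differ by more than the spread within them (p = 0.364, 0.379 and 0.842 by two-sided exact permutation, adjusted p = 0.655, 0.655 and 0.842 over 8 ratios).

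By the SD of log2 cpm within genotype, pooled over both groups, Myl7, Myl4, Sln and Mybphl were among the most variable of the 11225 tested genes. In WT libraries Myl7 had a lowest value of 3.24, a median of 38.9 and a highest value of 120.4 cpm, in replicates 6 and 4 for the extremes. In cmGch1 KO libraries it had a lowest value of 18.0, a median of 38.6 and a highest value of 84.4 cpm, in replicates 6 and 5. WT replicates 5 and 6 lay below every cmGch1 KO library and WT replicate 4 lay above every one, so that the range of the cmGch1 KO libraries fell inside that of WT. In raw counts, Myl7 had 4334 in WT replicate 4, 157 in WT replicate 5 and 71 in WT replicate 6, so that the low values were far above the counting floor.

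Myl4 followed the same libraries. Its values in WT were 3.70, 42.6 and 112.9 cpm (lowest, median and highest), and in cmGch1 KO 23.0, 43.7 and 81.1 cpm. The lowest and the highest WT libraries were again replicates 6 and 4, and the lowest cmGch1 KO library was again replicate 6. The groups overlapped, with every cmGch1 KO value inside the WT range.

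Sln, the sarcolipin gene, had the widest range. It had 0.684, 12.1 and 49.2 cpm in WT and 4.03, 13.0 and 23.5 cpm in cmGch1 KO libraries (lowest, median and highest). WT replicate 6 held 15 counts and WT replicate 5 held 32, against 1772 in WT replicate 4. The highest library was 71.9-fold above the lowest for Sln, 37.2-fold for Myl7, 30.5-fold for Myl4 and 26.2-fold for Mybphl. Mybphl, the myosin-binding protein, had 0.474, 3.65 and 12.4 cpm in WT and 1.96, 3.96 and 9.34 cpm in cmGch1 KO libraries. Its lowest library was WT replicate 5, with 15 counts, next to WT replicate 6 with 13 counts in a smaller library.

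Dkk3 and Stard10 varied less. Dkk3 had 8.78, 19.1 and 32.2 cpm in WT and 14.9, 22.8 and 30.9 cpm in cmGch1 KO libraries, a 3.67-fold range over all 12. Stard10 had 24.1, 37.7 and 64.2 cpm in WT and 36.6, 41.8 and 49.8 cpm in cmGch1 KO libraries, a 2.67-fold range. WT replicate 4 was the highest of the 12 libraries for both, with the lowest value in WT replicate 5 for Dkk3 and in WT replicate 6 for Stard10.

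Bmp10, the right atrial growth factor, was detected almost only in 1 library. WT replicate 4 held 47 counts (1.31 cpm), WT replicates 2 and 5 held 1 count each, cmGch1 KO replicate 4 held 2 counts, and the remaining 8 libraries held 0. It therefore did not pass the minimum of 3 cpm in at least 6 libraries and was not tested with the other genes. A two-sided exact permutation test gave p = 0.424 for Bmp10. With 8 libraries at 0 and most counts in 1 library, that test cannot decide whether the genotypes differ.

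**Figure D1:**
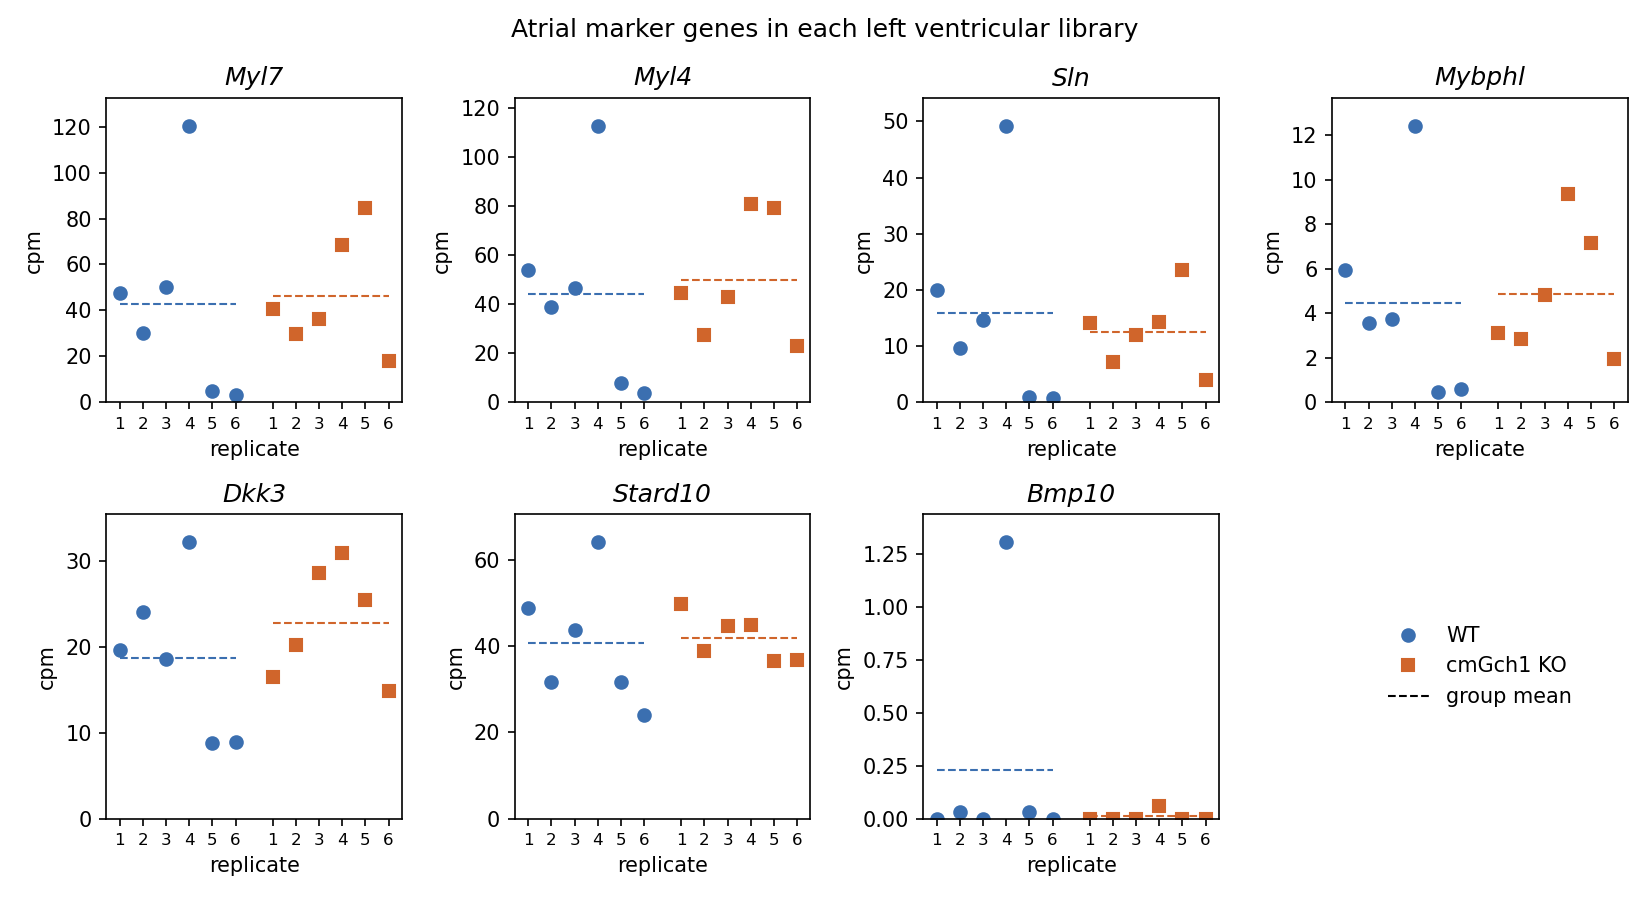
Level of each of the 7 atrial genes in cpm in the 6 WT (circles) and 6 cmGch1 KO (squares) libraries, by replicate, with a dashed line at each group mean. WT replicate 4 is highest for all 7 genes, WT replicates 5 and 6 are lowest for Myl7, Myl4, Sln, Mybphl and Dkk3, and Bmp10 reaches 1.31 cpm in WT replicate 4.

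The SD of log2 cpm within genotype placed these genes near the top of the 11225 tested genes. Sln ranked 8th by this SD (1.82), Myl7 ranked 12th (1.55), Myl4 ranked 15th (1.42) and Mybphl ranked 16th (1.40). Among the few genes ahead of them were the 4 Y-linked genes, which differed between libraries by the presence or absence of the Y chromosome. Dkk3 ranked 122nd (0.62) and Stard10 700th (0.38), against a median SD of 0.191 over all tested genes. The spread was wider in WT than in cmGch1 KO libraries, with a coefficient of variation of Myl7 of 100.5% against 54.2%. The highest WT library was 37.2-fold above the lowest for Myl7, and the highest cmGch1 KO library 4.69-fold. Whether the spread itself differed between the genotypes was not tested.

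The genotype comparison asked whether atrial transcripts were more or less abundant in cmGch1 KO than in WT ventricles. No difference was called for any of the 6 tested members. Over all 11225 tested genes, 1.12% were called at an FDR under 0.05, and the count among the members was 0 of 6. At an unadjusted p under 0.05 by edgeR there were 0 members and 1293 of all tested genes. DESeq2 called 0 members and 373 of all tested genes. In all 6 the libraries of the genotypes overlapped, and 1.87% of all tested genes did not overlap. The members' median log2 fold change (cmGch1 KO minus WT) was 0.11, beside -0.01 over all tested genes.

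Myl7 averaged 42.8 ± 43.0 cpm over WT and 46.2 ± 25.1 cpm over cmGch1 KO libraries (mean ± SD of 6), and its log2 fold change was 0.11 with an SE of 0.65 (edgeR FDR = 0.981). Sln averaged 15.9 ± 18.0 and 12.5 ± 6.76 cpm, a log2 fold change of -0.36 with an SE of 0.72 (edgeR FDR = 0.928). The SEs were large enough that a change of 1 log2 unit in either direction would lie within 2 SEs of 0 for Myl7, Myl4, Sln and Mybphl. The corresponding log2 fold changes were 0.17 (SE 0.60) for Myl4 and 0.11 (SE 0.61) for Mybphl. Dkk3 and Stard10 had smaller SEs, with log2 fold changes of 0.28 (SE 0.30) and 0.04 (SE 0.19). By a two-sided exact permutation test over 924 assignments, the smallest p among the 7 members was 0.381, for Dkk3. The sign for Sln was not stable, with a log2 fold change of 0.43 without WT replicate 4, and of 0.20 both with the replicate number as a block and from the deposited log2 values with limma. With 1 library left out, the signs of Myl7, Myl4, Stard10 and Mybphl turned as well. Their lowest log2 fold changes were -0.15, -0.07, -0.07 and -0.20. Dkk3 alone kept its sign, at 0.13 or more. The median over the 6 tested members was 0.61 without WT replicate 4.

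**Figure D2:**
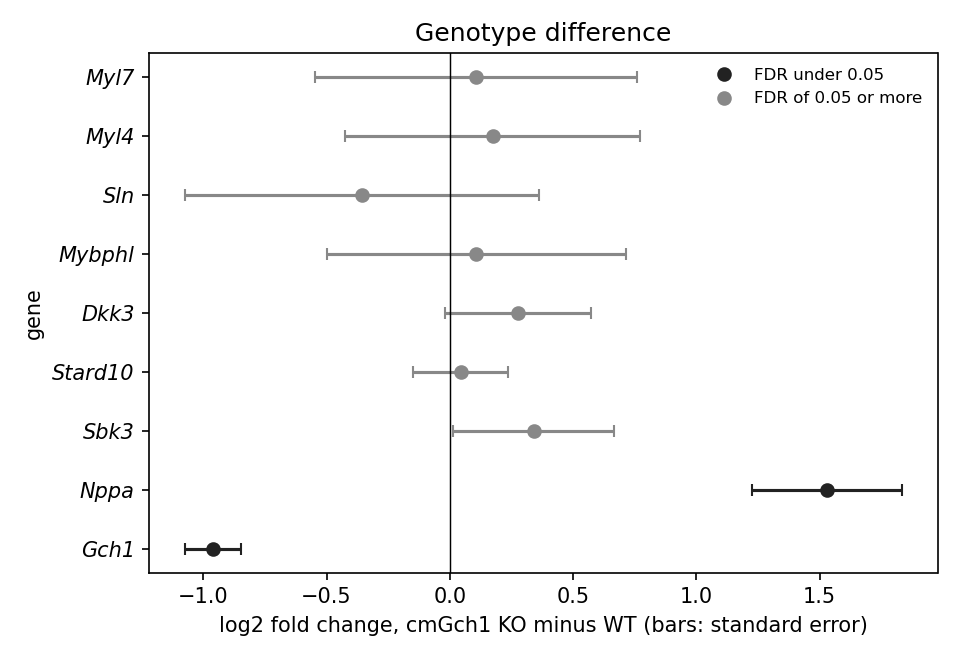
Log2 fold change, cmGch1 KO minus WT, of the 6 tested atrial genes and, for comparison, Sbk3, Nppa and Gch1, with bars for 1 SE from the edgeR fit and black points for an FDR under 0.05. Bmp10 is not shown because it was not tested. The 6 atrial genes lie within 1 SE of 0, from -0.36 for Sln to 0.28 for Dkk3, whereas Nppa is at 1.53 and Gch1 at -0.96.

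Within the ventricular samples the atrial genes moved together from library to library. Myl7 and Myl4, the paired light chains, had a Pearson r of 0.991 and a Spearman rho of 0.986 over the 12 libraries, on log2 cpm (permutation p = 1e-05, the smallest that the resamples can give, adjusted p = 4.2e-05 over 21 pairs). The 6 pairs among Myl7, Myl4, Sln and Mybphl had r between 0.959 and 0.991. Within WT libraries alone r for these pairs was 0.967 to 0.997, within cmGch1 KO libraries alone 0.809 to 0.974, and 0.872 to 0.975 when the 2 libraries farthest from the median were left out. The libraries of a pair share their depth and scaling, which differ little beside a range of 26.2-fold or more.

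Dkk3 followed the contractile genes less closely. Its 4 pairs with them had r of 0.885 to 0.952 over the 12 libraries and 0.62 to 0.902 within cmGch1 KO libraries. Stard10 followed them least. With the other 5 members above 0 in every library, its r was 0.780 to 0.904 within WT and 0.145 to 0.312 within cmGch1 KO libraries. Whether these differed between genotypes was not tested, and with 6 libraries each the relation within cmGch1 KO libraries is poorly determined. Over all 12 libraries its r was 0.672 to 0.841, and 0.282 to 0.689 without the 2 farthest libraries, so the relation rests in part on those libraries.

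In all, the 15 pairs that did not include Bmp10 had an adjusted permutation p under 0.05 by Pearson r, and 14 of them did by Spearman rho, the exception being Dkk3 with Stard10 (rho 0.483, permutation adjusted p = 0.163). None of the 6 pairs with Bmp10 did, with r of 0.389 to 0.539, and without WT replicate 4 these r were -0.0893 to 0.159.

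**Figure D3:**
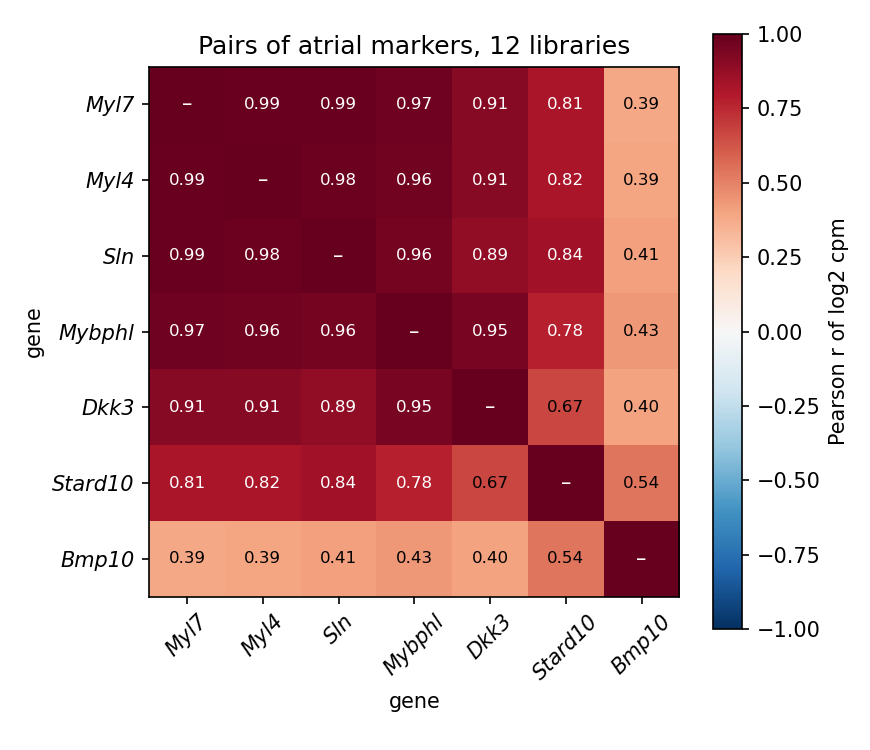
Pearson r of log2 cpm for each pair of the 7 atrial genes over the 12 libraries, on a colour scale from -1 to 1. The 4 contractile and calcium-handling genes form the block with r between 0.959 and 0.991, and Bmp10 has the lowest values, from 0.389 to 0.539.

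On the linear scale, the members fell into those that went to nearly nothing with Myl7 and those that kept a base level. When each gene's cpm was fitted as a straight line on Myl7 cpm, a description made after the values were seen, Mybphl had an intercept of 0.185 cpm, which is 3.97% of its mean. Myl4 had an intercept of 5.57 cpm, 11.9% of its mean, and Sln one of -2.26 cpm. With 1 library left out, these intercepts were 0.0652 to 0.309 cpm for Mybphl, 3.75 to 7.02 cpm for Myl4 and -2.77 to 0.648 cpm for Sln. The line put Dkk3 at 12.5 cpm, or 60.1% of its mean, and Stard10 at 30.6 cpm, or 74.0% of its mean, at a Myl7 level of 0. These intercepts are not measured levels. In WT replicate 6, the library with the least Myl7, Dkk3 had 8.94, Stard10 24.1 and Myl4 3.70 cpm, each below its intercept. Mybphl and Sln lay above theirs in that library. Fitted by genotype, Stard10 had an intercept of 26.8 cpm (65.9% of its mean) in WT libraries, and in cmGch1 KO libraries an intercept of 42.2 cpm with a slope of -0.00543, so that its line on Myl7 was flat there. The ratio of Sln to Myl7 in cpm was 0.309 ± 0.0932 in WT and 0.271 ± 0.0556 in cmGch1 KO libraries, a difference within their spread (two-sided exact permutation test, p = 0.409, adjusted p = 0.655).

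**Figure D4:**
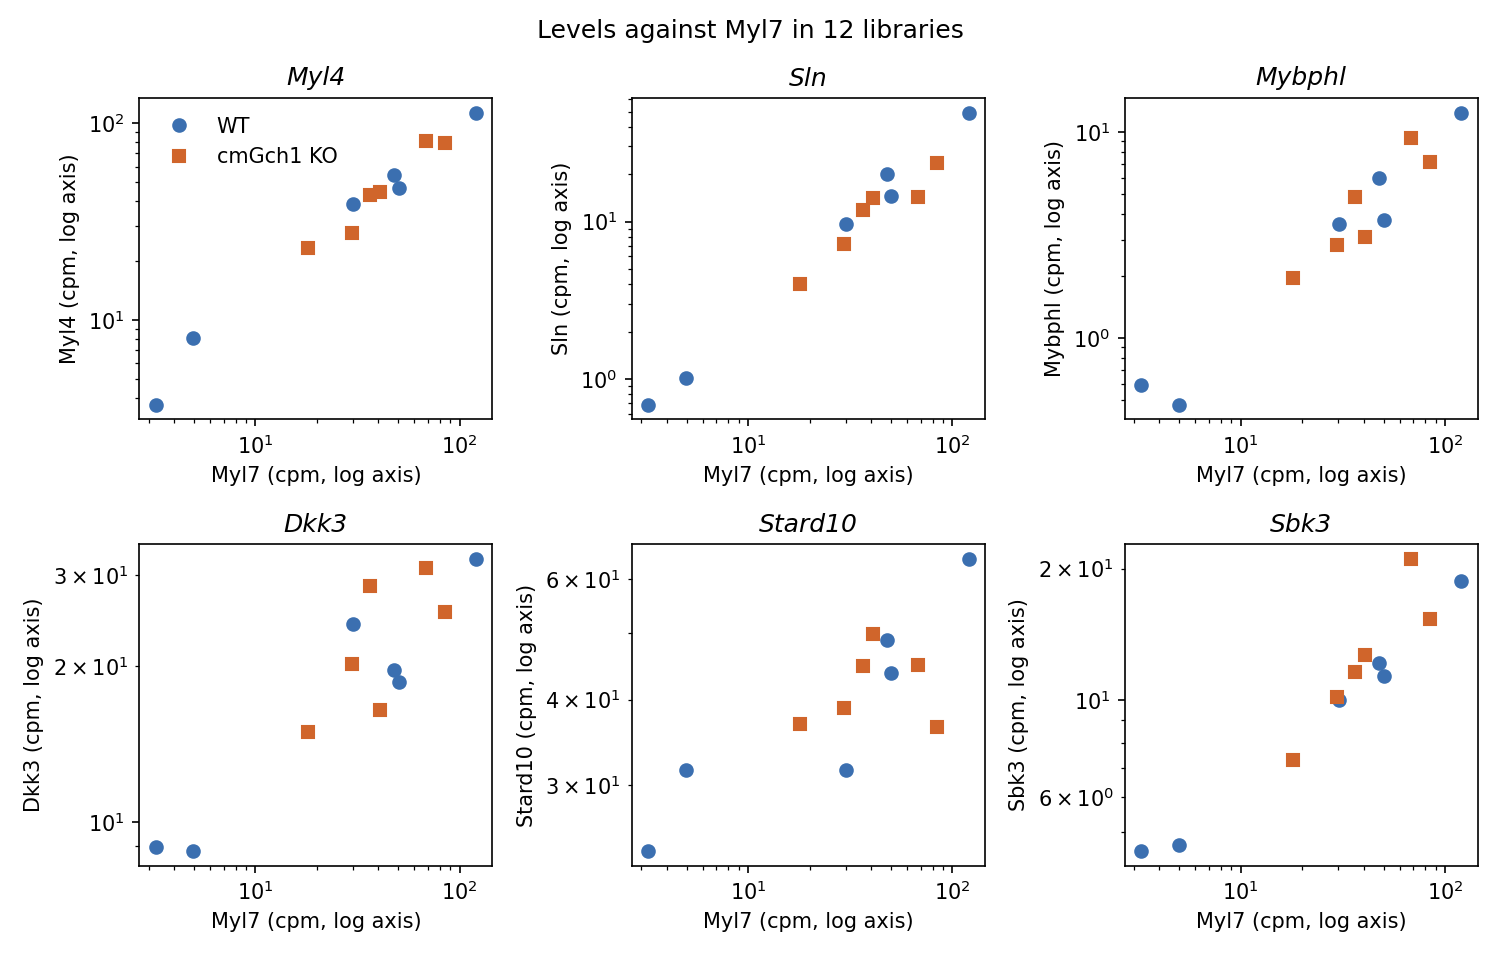
Levels of Myl4, Sln, Mybphl, Dkk3, Stard10 and Sbk3 against that of Myl7, in cpm on log axes, with 1 point per library for WT (circles) and cmGch1 KO (squares). Myl4, Sln and Mybphl fall with Myl7 across their whole range, whereas Dkk3 and Stard10 remain at 8.78 cpm and 24.1 cpm or more.

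An atrial score was formed as the mean, over the 6 members above 0 in every library, of log2 cpm centred within genotype. It was 1.87 in WT replicate 4, -1.68 in WT replicate 5, -2.07 in WT replicate 6 and between 0.35 and 0.89 in the other 3 WT libraries. In cmGch1 KO libraries it ran from -0.89 in replicate 6 to 0.63 in replicate 5. Summed over the 7 members, the level was 41.2 to 393 cpm in WT and 98.8 to 256 cpm in cmGch1 KO libraries, that is 0.00404% to 0.0373% of a library's counts.

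Outside the members, few genes followed the score. Of 11219 tested genes, 2 had a Pearson r above 0.9 and 18 above 0.8, while 9 had r below -0.8. These r are over 12 libraries and are descriptions, with no p. The nearest was Sbk3, an SH3-binding-domain kinase gene listed with the other atrial genes, at r 0.966 over all libraries, 0.997 within WT and 0.943 within cmGch1 KO. Sbk3 had a lowest value of 4.52 and a highest of 21.04 cpm. Next was Lmntd1, at r 0.931 over all, 0.992 within WT and 0.849 within cmGch1 KO. Myl1, the fast skeletal muscle essential light chain gene, followed at r 0.893, but with only 0.506 within cmGch1 KO libraries. The 7 next genes, BC005624, Smpd2, Tldc1, Eipr1, Nudt5, Wdr75 and Ephx1, had r of 0.817 to 0.863 and varied 1.25- to 1.70-fold from the lowest library to the highest. Their r was 0.893 to 0.977 within WT, but -0.396 (BC005624) to 0.613 (Ephx1) within cmGch1 KO libraries. The 5 lowest were Tyw3 (-0.87), Nt5c2 (-0.84), Tent4a (-0.83), Ctif (-0.83) and Agfg1 (-0.82). Within cmGch1 KO libraries these ran from -0.81 (Tyw3) to -0.29 (Tent4a).

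The nearest non-members differed between the members. Sbk3, Lmntd1 and Myl1 were, in that order, nearest to each of Myl7, Myl4, Sln and Mybphl. Genes near to Dkk3 included Ephx1, which encodes microsomal epoxide hydrolase (r 0.922), and Sbk3 (0.908). Genes near to Stard10 included Rap1b (0.935) and Nudt5 (0.933), neither of them an atrial gene of the lists. Of the other 11224 tested genes, 6 had r above 0.9 with Myl7, 3 of them members, and 21 had r above 0.9 with Stard10, 0 of them members. At r above 0.8 there were 481 genes with Stard10, against 15 to 22 with each of the other 5 tested members. The r in this paragraph up to here are on log2 cpm centred within genotype. The r of Stard10 with the other members given above, 0.672 to 0.841, is on values not centred. With that difference in measure, an r at the upper end of this range was of a size that Stard10 shared with many genes outside the group.

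Other genes with a known atrial or inflow preference were less uniform. Of 15 such genes, 14 were tested, 1 was called higher in cmGch1 KO libraries (Nppa) and 0 lower, with a median log2 fold change of -0.03. Over all tested genes 0.677% were called higher and 0.445% lower. Beside Sbk3, those with the highest r to the score were Sbk2 (0.73), Nppa (0.72), Pam (0.71) and Gja5 (0.70), the last encoding connexin 40 of the atria and the conduction system. The r of the atrial transcription factor genes was -0.32 for Nr2f1, -0.11 for Nr2f2 and 0.30 for Tbx5, and that of the potassium channel genes Kcnj3 and Kcnj5, which form the acetylcholine-gated channel, was -0.03 and -0.06. Kcnj3 averaged 55.0 ± 3.37 cpm over WT and 40.8 ± 7.28 cpm over cmGch1 KO libraries, with no overlap, a log2 fold change of -0.43 and an edgeR FDR of 0.0846. DESeq2 called Kcnj3 (adjusted p = 0.00997) and Pam, which encodes the amidating enzyme abundant in atrial granules (log2 fold change 0.32, adjusted p = 0.0294), both of which edgeR did not call. Of the 11225 tested genes, DESeq2 called 373 and edgeR 126. The libraries with Xist, cmGch1 KO replicates 2 and 3, had the lowest Kcnj3 (29.1 and 37.6 cpm) and the highest Pam (1079 and 1091 cpm). Close to them were cmGch1 KO replicate 1 for Kcnj3 (37.9 cpm) and replicate 4 for Pam (1066 cpm). Kcnj5 had 100.7 to 126.2 cpm in WT and 115.9 to 133.9 cpm in cmGch1 KO libraries, with overlap and no call.

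Nppa, which encodes the atrial natriuretic peptide and is switched on in stressed ventricle, was the only one of the 15 called by edgeR. It had 66.7, 147.1 and 262.9 cpm in WT and 200.9, 431.9 and 677.9 cpm in cmGch1 KO libraries (lowest, median and highest), a log2 fold change of 1.53 (SE 0.30, edgeR FDR = 0.0240). The groups overlapped by 1 pair of libraries, since WT replicate 4, the highest for the atrial members, lay above cmGch1 KO replicate 6, the lowest of its group for Myl7, Myl4, Sln, Mybphl and Dkk3. The mean log2 cpm of the 6 score members, not centred, was 3.80 over WT and 4.37 over cmGch1 KO libraries, and with it as a covariate the log2 fold change of Nppa was 1.41 (SE 0.24, edgeR FDR = 0.0109). The score centred within genotype gave 1.62 (SE 0.23, edgeR FDR = 0.00350), but by its construction it takes out spread within the groups only and cannot remove a difference between them. Without the 2 libraries with Xist it was 1.31 and no longer called (edgeR FDR = 0.152), and a covariate for sex-linked expression gave 1.34 (edgeR FDR = 0.113). It was also not called when WT replicate 2, 3 or 5 or cmGch1 KO replicate 2, 3 or 4 was left out, with log2 fold changes of 1.36 to 1.52.

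The relation of Nppa to Myl7 was examined within each genotype. On log2 cpm the Pearson r of Nppa with Myl7 was 0.905 in the 6 WT libraries (exact permutation p = 0.00556, adjusted p = 0.0833 over 30 relations) and 0.363 in the 6 cmGch1 KO libraries (exact permutation p = 0.486, adjusted p = 0.722). Spearman's rho was 0.829 (exact permutation p = 0.0583, adjusted p = 0.438) and 0.0286 (exact permutation p = 1, adjusted p = 1). Without the 2 libraries farthest from the median of Myl7, r was 0.926 and -0.162. No relation of this family passed the correction, and the difference between the genotypes was not tested. On the linear scale, Nppa in WT libraries had an intercept of 91.1 cpm at a Myl7 level of 0, 59.9% of its mean, and a slope of 1.43 cpm per cpm of Myl7.

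**Figure D5:**
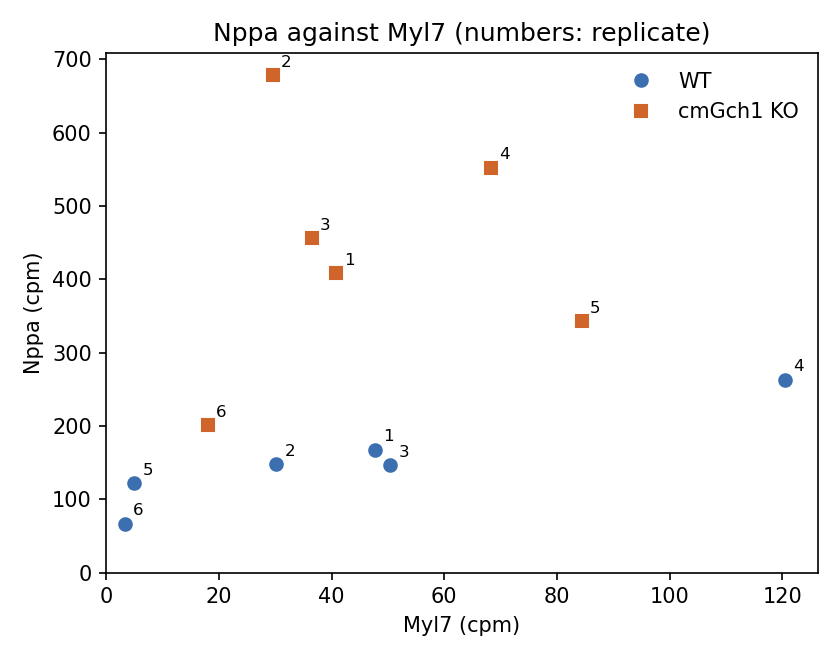
Nppa against Myl7 in cpm, with 1 numbered point per library. The WT points climb with Myl7 from 66.7 to 262.9 cpm, and the cmGch1 KO points lie between 200.9 and 677.9 cpm without such an order.

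The ventricular counterparts showed no genotype call. Of 8 ventricular genes, among them Myl2, Myl3, Myh7 and Irx4, 7 were tested and 0 were called, with a median log2 fold change of 0.11, and the eighth, Hand1, had at most 4 counts in any library. Their r to the atrial score was -0.43 to 0.45, with Myl3 the highest and Myh7 the lowest of those tested. Of 9 genes of the sinus node and conduction system, 5 were tested and 0 were called. Hcn4, the pacemaker channel gene, averaged 9.90 ± 1.86 cpm over WT and 7.93 ± 1.30 cpm over cmGch1 KO libraries (edgeR FDR = 0.372), with r to the score of -0.29. Isl1, a marker of the sinus node, had at most 2 counts in a library.

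The genes that act with the members were also measured. Of 24 such partners, 19 were tested and 0 were called, with a median log2 fold change of -0.05. Atp2a2, which encodes the calcium pump that sarcolipin inhibits, had a log2 fold change of -0.18 (SE 0.12), and Pln one of -0.13 (SE 0.08). Of the receptors and signal carriers of Bmp10, Acvrl1, Bmpr2 and Eng had log2 fold changes of -0.01, -0.05 and 0.03, and Smad1, Smad5 and Smad9 of -0.08, -0.04 and -0.23. Its targets Id1 and Id3 had log2 fold changes of -0.22 and -0.16. Id2, listed with them, had 5.02 to 8.59 cpm in WT and 4.91 to 10.4 cpm in cmGch1 KO libraries, with overlap. The close relative of Bmp10, Gdf2, had 0 counts in every library, as had Dkk1, the Dickkopf family's Wnt inhibitor. Among lipid carriers related to Stard10, Pctp averaged 6.002 ± 1.02 cpm over WT and 8.52 ± 1.43 cpm over cmGch1 KO libraries (log2 fold change 0.50, edgeR FDR = 0.126). Stard7 did not overlap between the genotypes, at 208.9 ± 3.36 and 192.8 ± 4.999 cpm, with a log2 fold change of -0.12 (edgeR FDR = 0.345). Mybpc3, the main myosin-binding protein C gene of the heart, had a log2 fold change of 0.16 (SE 0.07, edgeR FDR = 0.453), and Mylk3, the kinase of the ventricular regulatory light chain, one of 0.08 (SE 0.08).

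Markers of tissues that border the ventricle were measured beside the atrial genes. Of 9 epicardial and mesothelial genes, 2 were tested and 0 called, and their summed level was 9.72 to 19.1 cpm in WT and 12.02 to 25.6 cpm in cmGch1 KO libraries. The mesothelial genes Upk3b and Lrrn4 had the highest r to the atrial score among them, at 0.80 and 0.79, with Upk3b at 157 counts (4.36 cpm) in WT replicate 4 and 0 counts in WT replicate 6. Wt1 and Aldh1a2, the 2 tested epicardial genes, had r of -0.31 and 0.00. Of 5 valve genes, 4 were tested and 0 called, with a summed level of 27.3 to 55.6 cpm in WT and 29.8 to 44.1 cpm in cmGch1 KO libraries. Of 5 arterial smooth muscle genes, all were tested and 1 was called higher, Acta2, with a log2 fold change of 0.66 (edgeR FDR = 0.00672) and r to the score of 0.24. Of these 5 genes 2 had a positive and 3 a negative log2 fold change, with a median of -0.21. The highest Acta2 values were in cmGch1 KO replicates 2 and 3, the libraries with Xist, at 241.8 and 232.8 cpm. The other cmGch1 KO libraries had 161.8 to 194.7 cpm of Acta2, and WT libraries had 112.6 to 144.1 cpm.

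The 5 blood genes had log2 fold changes of -0.43 to -0.30, with 0 called, and r to the score of 0.39 to 0.63. Their summed level was 391 to 1147 cpm in WT and 429 to 921 cpm in cmGch1 KO libraries. Nerve genes were low, with 2 of 5 tested and 0 called, at a sum of 8.69 to 10.5 cpm in WT and 8.14 to 12.1 cpm in cmGch1 KO libraries. Adipocyte genes had 0 of 5 tested, with sums of 2.01 to 9.25 and 0.441 to 8.56 cpm. The 4 lung genes had 0 tested and a sum of at most 0.416 cpm in any library, with the surfactant gene Sftpc at 0 throughout. The part of the epicardial and blood signal in the variation of the atrial genes was not tested.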

How the data were processed

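RNA from the left ventricle of 6 WT and 6 cmGch1 KO mice was sequenced. The sample labels gave the groups and replicate numbers. By the study's methods, the authors made paired-end libraries that keep strand and used HISAT2, Picard and featureCounts for the counts, and the submitters' processing notes name GRCm38 and SAMtools. The authors deposited raw counts per gene and a second table of normalized values on a log2 scale, whose tool is not given in the sources used here. Raw counts were used for all main results, and the log2 values only as an alternative.

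Symbols, coordinates and exon lengths were taken from GENCODE M21. The 11225 genes above 3 cpm in 6 or more libraries were tested with the quasi-likelihood test of edgeR 4.0.16 (R 4.3.3), with TMM scaling, genotype as the only term and Benjamini-Hochberg adjustment at an FDR of 0.05. The study's methods name edgeR and the cpm minimum. Single genes were also tested by exact permutation over 924 splits, two-sided. Pairs of members were correlated as log2 cpm (prior count 2), with permutation p from 100000 resamples over 12 libraries and exact p over 6. The SD rank used log2 cpm centred within genotype.

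The members and the gene lists were chosen with earlier results of these data known. The genes named are the members, Gch1, Nppa, listed genes that were called or act with a member, the 10 genes with the highest and 5 with the lowest r to the atrial score, the 3 nearest to each tested member, and Xist with 4 Y-linked genes. Some genes that meet this rule are not reported here. Other listed genes are named outside this rule, after their values were seen, including Kcnj3, Pam, Upk3b and Hcn4.

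Alternatives were DESeq2 1.42.0 size factors and Wald test, library size alone, no filter, filterByExpr, the replicate number as a block, a sex-linked covariate, the deposited log2 values with limma 3.58.1, other prior counts, and leaving out libraries. The atrial score as a covariate was planned too. The score not centred within genotype, the line on Myl7, the relations of other atrial genes to Myl7 and the leaving out of WT replicates 4, 5 and 6 together were chosen after seeing the data. The edgeR step was tested on simulated data. The study's methods define n as a single animal. For the 30 same-genotype pairs, chi-square divided by its degrees of freedom was 9.96 to 60.2, far above the 1 of sampling noise, so each library counted once.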

Additional observations from a re-analysis of the deposited data

Results flagged for a closer look

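Among 40 groups of 6 values examined for a single library far from the others, 2 were past Dixon's critical value, and chance alone would put about 5% of groups past it. Both concern Bmp10. In WT libraries, replicate 4 stood at 1.31 cpm (47 counts) above the others, which had 0 or 1 count. In cmGch1 KO libraries, replicate 4 stood at 0.0600 cpm (2 counts) above 5 libraries at 0, a value under the floor that a count of 0 allows. WT replicate 4 was also the highest library for the other 6 members, whose WT values were not past Dixon's value.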

How the results depend on the processing

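No member was called under any of the 10 alternatives or with any of the 12 libraries left out. The median log2 fold change of the 6 tested members, 0.11 as reported, was 0.09 to 0.39 under the alternatives and -0.09 to 0.61 with 1 library left out. As reported, 15 pairs had an adjusted p under 0.05, and the number was 15 under the other scalings, other prior counts and the deposited values, 10 without the 2 libraries farthest from the median of Myl7 and 14 to 15 with 1 library left out. Over all genes, 126 were called as reported, 373 by the DESeq2 Wald test, 64 with the sex-linked covariate, 38 without the libraries with Xist, 15 without WT replicates 4, 5 and 6, and 74 (without WT replicate 5) to 216 (without cmGch1 KO replicate 1) with 1 library left out, with 76 without WT replicate 3 and 83 without cmGch1 KO replicate 3. The causes were not tested, except that leaving out libraries leaves fewer samples. Of the 15 other atrial genes, 1 was called as reported, 3 by the DESeq2 Wald test, 0 with the sex-linked covariate, 0 without the libraries with Xist, 0 without WT replicates 4, 5 and 6, and 0 to 1 with 1 library left out. The Nppa log2 fold change stayed between 1.31 and 1.76 throughout these alternatives.

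Replicate numbers are shared between the genotypes. The correlation of same-numbered deviations was 0.68, 0.40 and 0.51 for numbers 1, 5 and 6, and -0.13 to -0.08 for the other numbers. Each library was compared with the 6 of the other genotype, and 5 of 12 libraries correlated best with their own number. Since not every number did so and no source says that a number marks a shared litter, batch or day, the numbers were not taken as pairs, which does not show that a shared factor is absent. With the replicate number as a block, 188 genes were called, 0 of them members, 1 other atrial gene was called, and the members' median log2 fold change was 0.39. The lowest Bmp10, Sln and Mybphl values rest on few counts, and depth limits their precision.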

Other observations

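With the members' mean log2 cpm, not centred, as a covariate, 118 genes were called between the genotypes (71 higher, 47 lower in cmGch1 KO), beside 126 without it. With the score centred within genotype, which cannot adjust the genotype difference, 143 were called. When all genes were fitted without a filter on low values, Bmp10 had a log2 fold change of -3.92 (SE 1.41) with an edgeR adjusted p of 0.362. That value rests on the 47 counts in WT replicate 4 and on the prior count, and is not a bound. Ephx1, one of the genes nearest to the score and the nearest to Dkk3, was called higher in cmGch1 KO libraries (log2 fold change 0.48, edgeR FDR = 0.00303).

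Krt18, a keratin gene of the epicardial list that did not pass the filter, averaged 0.436 ± 0.142 cpm over WT and 1.09 ± 0.547 cpm over cmGch1 KO libraries, with no overlap. It was named among the listed genes because its values did not overlap, and was not tested. Aldh1a2, the retinoic acid synthesis gene, had 4.99 ± 1.12 and 9.03 ± 4.51 cpm, a log2 fold change of 0.84 (SE 0.25, edgeR FDR = 0.151).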
